A study of Mus musculus with 33 samples.

Results

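Amino acid breakdown and the urea cycle were followed through 9 listed genes in mouse liver at birth, with mouse lung as the contrast. Every probe set annotated to one of the listed genes, by its current or an older symbol, was taken. They were found for 8 of the 9 genes, as 10 of the 12488 probe sets on the array. These are Tat, Tdo2 (2 probe sets) and Hal, which begin the breakdown of tyrosine, tryptophan and histidine, and Cps1, Otc, Ass1, Asl (2 probe sets) and Arg1 of the urea cycle. Sds, serine dehydratase, had no probe set and was left out.

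RNA of whole organs of C57/BL mice (BL/57 or C57/Black in some labels, C57B/6J in the methods) was hybridized to 33 Affymetrix MGU74Av2 arrays in 11 groups of 3. The livers came from fetuses of day 21 (F21) and from newborns 2 h and 6 h old, and the study's text places the livers in room air. Lungs of room air were taken at F21 and at 2, 6, 12 and 24 h after birth. Lungs of 10% oxygen came from fetuses at F21 and from newborns at 2 h and 6 h. By the methods, the dams of both were placed in 10% oxygen before delivery, and the fetuses were taken after 12 h of it. No group carried an engineered allele, and no drug was under study. By the methods, the mice were killed with a lethal dose of sodium pentobarbital before the organs were taken. The values are signal intensities of the Affymetrix MAS5 software, in which each array was scaled to a target intensity of 100, so that a signal is relative to the other transcripts of its array. Nothing in the labels says whether the 3 samples of a group came from separate litters, and p-values measure the spread between these samples.

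Amino acids in excess of what protein synthesis needs are stripped of nitrogen in the liver, and the carbon that remains can become glucose or fuel. The nitrogen leaves as ammonia or as amino groups and is built into urea by the enzymes of the urea cycle in hepatocytes. At birth the supply of glucose through the placenta ends, and the newborn liver turns to its own production of glucose. Tat, tyrosine aminotransferase, is known as an enzyme whose mRNA in liver responds to glucocorticoids and to glucagon through cyclic AMP.

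Tat and Hal were the members that differed from the fetal liver past the test, and their promoters are shown for that reason. RefSeq gave a promoter window (250 bases before to 50 after the start of the gene, build GRCm38.p6) for 5 members, Tat, Tdo2, Hal, Otc and Ass1. The Tat window lies on the plus strand at chr8:109990186-109990485 and the Hal window on the plus strand at chr10:93488518-93488817. Capitals mark the matches to 5 motifs, each searched on both strands. The letters of the core promoter motifs were TATAAA for the TATA element and CCAAT for the element of that name. The hormone motifs were TGACG, a core of the cyclic AMP response element, and TGTTCT, a core of the glucocorticoid response element. The motif of the C/EBP factors was TTGCNNAA.
Tat promoter: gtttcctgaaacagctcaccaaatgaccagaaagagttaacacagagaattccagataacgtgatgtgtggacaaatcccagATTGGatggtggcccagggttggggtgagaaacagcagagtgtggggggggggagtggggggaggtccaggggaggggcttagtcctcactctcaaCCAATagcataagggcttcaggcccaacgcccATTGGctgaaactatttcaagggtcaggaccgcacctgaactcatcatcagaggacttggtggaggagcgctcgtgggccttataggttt
Hal promoter: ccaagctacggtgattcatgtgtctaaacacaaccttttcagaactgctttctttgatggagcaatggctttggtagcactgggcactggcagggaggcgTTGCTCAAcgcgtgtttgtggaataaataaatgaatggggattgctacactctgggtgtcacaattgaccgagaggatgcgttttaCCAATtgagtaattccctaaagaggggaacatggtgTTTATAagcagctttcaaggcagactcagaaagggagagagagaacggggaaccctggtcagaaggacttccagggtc
Tat held 3 CCAAT matches, 1 on the plus strand 72 bases before the start and 2 on the minus strand, which begin 168 and 40 bases before it. Of all 32851 promoter windows, 37.4% held CCAAT at least once and 3.37% at least 3 times. Hal held TTGCTCAA, a match to the C/EBP element, 150 bases before the start, CCAAT 64 bases before it and TATAAA on the minus strand 28 bases before it. The C/EBP letters were in 10.8% and the TATA letters in 13.6% of all windows. Tdo2 held 1 TATAAA and 1 CCAAT match, and Otc and Ass1 held none of the 5 motifs. No member window held TGACG or TGTTCT, which 20.8% and 19.0% of all windows held. No 2 matches overlapped. A match is a description of the letters, and response elements outside these 300 bases were not searched.

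Tat, the first and rate-limiting enzyme of tyrosine breakdown, was higher in liver 2 h after birth and remained higher at 6 h. Its signals were 173.0, 238.8 and 213.2 in F21 livers, 1266.7, 1055.1 and 747.5 at 2 h, and 610.0, 1027.7 and 854.3 at 6 h. Every liver taken after birth was above every F21 liver, and the 2 h and 6 h livers overlapped. The mean signal was 208 ± 33.2 at F21, 1023 ± 261 at 2 h and 831 ± 210 at 6 h (SD, n = 3 each). In limma over the 9 liver arrays, Tat rose by 2.28 on the log2 scale at 2 h (4.84-fold, standard error 0.23, 95% interval 1.78 to 2.77, adjusted p = 2.2e-04). At 6 h it was 1.98 above F21 (3.93-fold, 95% interval 1.48 to 2.47, adjusted p = 5.24e-04). The difference of 6 h from 2 h was -0.30 (95% interval -0.79 to 0.19, adjusted p = 0.835). Both comparisons share the same F21 livers. Tat was the 3rd of 5693 tested probe sets by p at 2 h and the 10th at 6 h.

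Hal, histidine ammonia-lyase, which removes the amino group of histidine, passed the test at 6 h. Its signals were 72.3, 79.2 and 87.5 at F21, 84.0, 98.3 and 105.0 at 2 h, and 153.7, 267.1 and 167.2 at 6 h. The 6 h livers were above all the others, while the F21 and 2 h livers overlapped. Hal rose by 1.26 on the log2 scale at 6 h against F21 (2.39-fold, standard error 0.27, 95% interval 0.68 to 1.84, adjusted p = 0.0334 in limma). At 2 h the difference from F21 was 0.26 (95% interval -0.31 to 0.84, adjusted p = 0.765). The 6 h livers exceeded the 2 h livers by 0.995 (95% interval 0.42 to 1.57), which did not pass (adjusted p = 0.663). The call at 6 h did not hold in 5 of the 6 fits that left out 1 array, with adjusted p of 0.0651 to 0.119, or without the filter on low signals (0.0986).

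Tdo2, tryptophan dioxygenase, opens the kynurenine route of tryptophan breakdown and is known from the rat as an enzyme that the liver gains after birth. Its probe set 93827_at had 22.7, 51.8 and 56.6 at F21, 56.7, 8.7 and 15.2 at 2 h, and 63.5, 68.8 and 25.0 at 6 h. Its probe set 99269_g_at had 51.9, 44.8 and 26.0 at F21, 13.5, 36.0 and 33.3 at 2 h, and 42.1, 96.2 and 29.1 at 6 h. The groups overlapped in both, the signals overlapped those of the lung (5.8 to 72.3 and 6.3 to 53.4 over 24 arrays), and neither probe set passed the filter on low signals. Both were left out of every test.

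**Figure D1:**
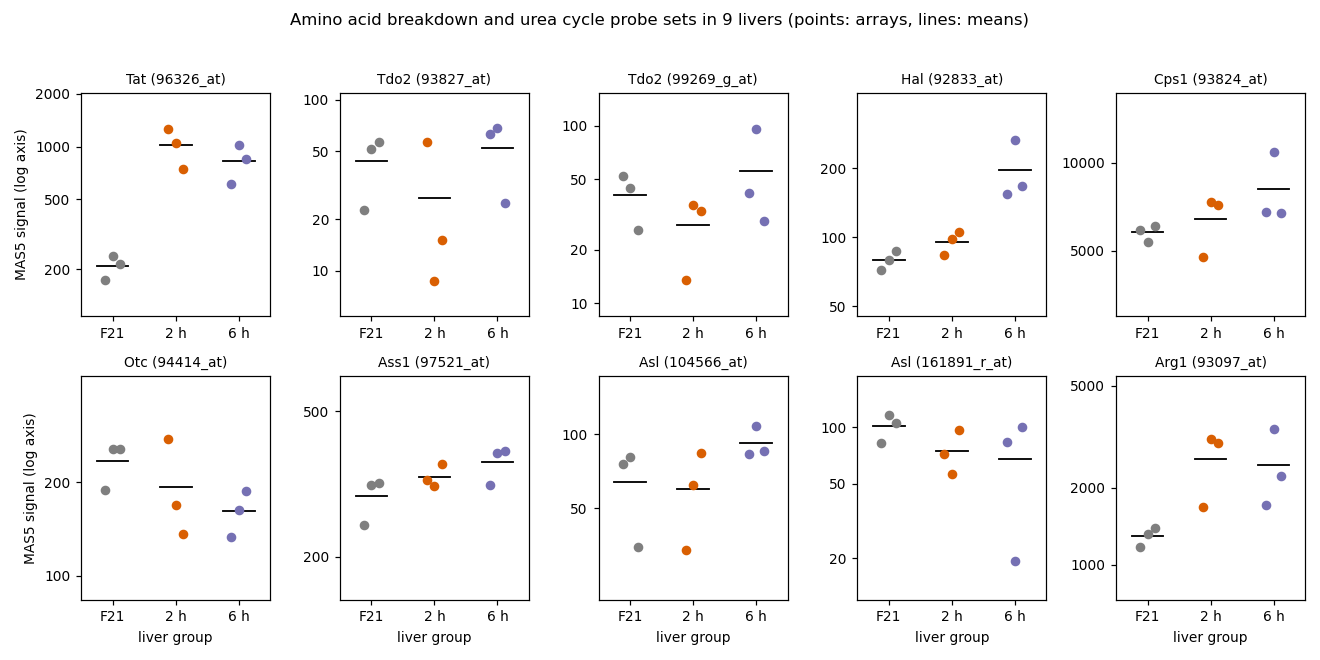
MAS5 signal (log axis) of the 10 probe sets in the 3 liver groups. Each point is 1 array and each line the mean of 3 arrays, and the axis range differs between panels. Tat lies between 610.0 and 1266.7 in all 6 livers after birth, against 173.0 to 238.8 at F21.

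The urea cycle enzymes were measured in the livers of all 3 groups, and none passed the test at 2 h or 6 h. Cps1, carbamoyl phosphate synthetase, brings ammonia into the cycle in the mitochondria. Its signals were 5884.3, 5359.4 and 6091.1 at F21, 4765.7, 7374.1 and 7190.9 at 2 h, and 6776.7, 10886.9 and 6758.0 at 6 h. The 6 h livers did not overlap the F21 livers, and the 2 h livers reached below and above them. Cps1 differed from F21 by 0.13 on the log2 scale at 2 h (95% interval -0.29 to 0.56, adjusted p = 0.851 in limma). At 6 h the difference was 0.46 (95% interval 0.04 to 0.88, adjusted p = 0.326).

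Arg1, arginase, splits arginine into urea and ornithine at the end of the cycle. Its signals were 1169.7, 1325.5 and 1395.2 at F21, 1690.2, 3093.4 and 2995.7 at 2 h, and 1711.5, 3406.6 and 2224.8 at 6 h. All 6 livers after birth were above the F21 livers. The difference from F21 was 0.95 on the log2 scale at 2 h (1.94-fold, 95% interval 0.41 to 1.49, adjusted p = 0.112 in limma). At 6 h it was 0.86 (1.82-fold, 95% interval 0.32 to 1.40, adjusted p = 0.119). Without the first 2 h liver, at 1690.2, Arg1 passed at 2 h with 1.23 on the log2 scale (adjusted p = 0.0115). This was the only 1 of the 6 fits that left out 1 array to pass at 2 h, with adjusted p up to 0.364 in the others. None of the 6 passed at 6 h (adjusted p of 0.0754 to 0.282 in limma).

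Otc, ornithine transcarbamylase, is the X-linked mitochondrial enzyme that makes citrulline. Its signals were 188.9, 257.6 and 257.3 at F21, 275.8, 168.8 and 136.1 at 2 h, and 133.6, 162.4 and 187.7 at 6 h. The 6 h livers were all below the F21 livers, by -0.54 on the log2 scale (95% interval -1.12 to 0.04, adjusted p = 0.405 in limma). At 2 h the groups overlapped and the difference was -0.33 (95% interval -0.90 to 0.25, adjusted p = 0.703).

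Ass1, argininosuccinate synthetase, joins citrulline to aspartate, which carries the second nitrogen. Its signals were 243.8, 314.0 and 318.6 at F21, 323.1, 311.9 and 357.9 at 2 h, and 313.9, 383.4 and 389.5 at 6 h. The groups overlapped. The difference from F21 was 0.19 on the log2 scale at 2 h (95% interval -0.19 to 0.57, adjusted p = 0.743 in limma) and 0.31 at 6 h (95% interval -0.07 to 0.69, adjusted p = 0.469).

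Asl, argininosuccinate lyase, releases arginine and fumarate, and its 2 probe sets differed in direction at 6 h without either one passing. Probe set 104566_at had 76.0, 80.8 and 34.8 at F21, 33.9, 62.4 and 84.2 at 2 h, and 83.1, 107.9 and 85.6 at 6 h. Its 6 h livers were above its F21 livers, by 0.61 on the log2 scale (95% interval -0.38 to 1.61, adjusted p = 0.616 in limma). Probe set 161891_r_at had 82.1, 116.6 and 104.9 at F21, 72.2, 56.0 and 96.0 at 2 h, and 83.3, 19.2 and 100.5 at 6 h. It differed from F21 by -0.88 at 6 h, with the interval from -2.05 to 0.28 (adjusted p = 0.509), and the groups overlapped. At 2 h the differences were -0.09 and -0.46 (adjusted p = 0.969 and 0.80).

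Over the 8 probe sets tested in liver, 1 passed at 2 h against F21, beside 52 of all 5693 tested (0.913%). At 6 h 2 passed, both higher, beside 105 of all tested (1.84%). Between 6 h and 2 h none passed in limma, beside 1 of all tested (0.0176%), where 372 of all tested had an unadjusted p under 0.05. Hal was 1 of these, and none passed by the test of the study's methods after adjustment. The median difference of the 8 was 0.16 on the log2 scale at 2 h and 0.54 at 6 h, where the median over all tested was 0.00 at both. The F21 and 2 h livers did not overlap in 2 of the 10 member probe sets, where 13.4% of all 12422 probe sets did not. The 6 h livers did not overlap the F21 livers in 6 of the 10, Tat, Hal, Cps1, Asl (104566_at) and Arg1 higher and Otc lower, where 14.3% of all probe sets did not. The 6 h livers did not overlap the 2 h livers in 1 of the 10, where 11.1% did not.

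**Figure D2:**
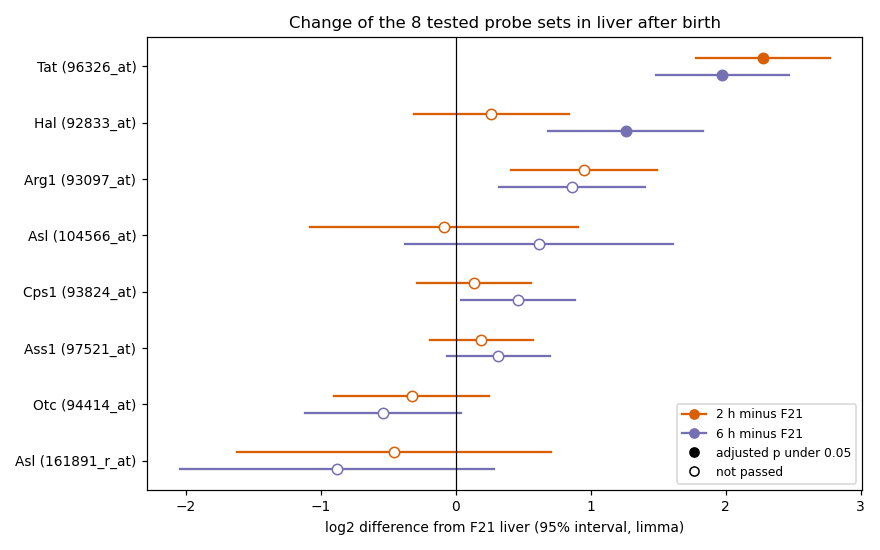
Difference in log2 signal (horizontal axis) of the 8 tested probe sets at 2 h and at 6 h from the F21 livers, with 95% intervals from limma. Filled points passed at an adjusted p under 0.05: Tat at 2.28 and 1.98 and Hal at 1.26 for 6 h. Open points did not pass, among them Arg1 at 0.95 and 0.86.

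The labelled organ was checked against cell type markers. The summed signal of 9 hepatocyte genes was 113080 to 142406 in liver and 92.9 to 270.1 in lungs of room air. In lungs of 10% oxygen it was 187.9 to 508.0, apart from 1 F21 lung at 3243.1. In liver this sum, most of it albumin and Apoa1, was 129014 to 141693 at F21, 113080 to 142406 at 2 h and 116525 to 132066 at 6 h, so that the groups overlapped. Of the 9 genes, 1 (Ttr) at 2 h and 4 (Ttr, Fgg, Ahsg and Afp) at 6 h were lower in every later liver than in any F21 liver, and none was higher. Beside this and the next lists, 13.4% of all 12422 probe sets at 2 h and 14.3% at 6 h did not overlap F21, in either direction. The 1 of 9 at 2 h lies near that share. Ahsg, fetuin, was 24491.3 to 26266.8 at F21, 22046.5 to 24796.6 at 2 h and 20338.9 to 21269.8 at 6 h. The 8 erythroid genes, of an organ that still makes blood cells at this age, summed to 45547.5 to 56083.6 over the livers, most of it Hba-a1, and the sums overlapped. Of them, 5 at 2 h and 4 at 6 h were higher in every later liver than in any F21 liver, and 1 (Klf1) was lower at 2 h. Alas2, the first enzyme of heme synthesis in red cells, was 1285.4 to 1514.7 at F21, 1934.2 to 2335.5 at 2 h and 2120.0 to 2411.2 at 6 h. The sum of 8 neutrophil genes was 19974.3 to 21546.6 at F21, 15778.2 to 17811.7 at 2 h and 16701.4 to 18593.7 at 6 h, so that F21 lay above both later groups. At 2 h the macrophage sum was lower, at 1476.2 to 1548.9 against 1627.1 to 1806.0 at F21, and the fibroblast and stellate sum was higher, at 1339.8 to 1385.3 against 1063.7 to 1250.9 at F21. The sum of 3 bile duct genes was also higher at 2 h (61.4 to 75.4 against 35.4 to 53.2 at F21). That of 6 genes of the exocrine pancreas was lower at 6 h (590.7 to 779.0 against 781.4 to 850.4 at F21). The pancreas sums of the livers lay within those of the lungs (431.6 to 1226.2). Gene by gene, no macrophage or bile duct gene and 1 of 5 fibroblast and stellate genes (Col1a1) stood apart from F21 at 2 h. Of the pancreas genes 1 (Clps) did at 6 h, and of the 8 neutrophil genes 2 at 2 h and 4 at 6 h. The part of these marker genes in the differences of the members was not tested. In whole organs, fewer cells of a type and less RNA per cell cannot be told apart. The Gapdh 3′ to 5′ signal ratio was 1.30 to 1.86 in liver, 0.734 to 1.15 in lungs of room air and 1.21 to 9.40 in lungs of 10% oxygen. Livers of the same group correlated at 0.867 to 0.895 (Pearson's r over probe sets).

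The probe sets closest in course to Tat were found by a measure of distance. Of all tested probe sets with 1 gene symbol, the 5 nearest to Tat over the 9 livers were those of Pck1, Slc25a25, G6pc, Peg3 and Prkd2, by the root mean square difference of log2 signals set to 0 at the F21 mean. Pck1, phosphoenolpyruvate carboxykinase, an early enzyme of gluconeogenesis, lay at a distance of 0.184. Its signals were 194.7, 204.7 and 210.5 at F21, 1034.0, 966.4 and 658.6 at 2 h, and 518.3, 931.1 and 710.5 at 6 h. In Pck1 as in Tat, the first 2 h liver was the highest array of its group and the first 6 h liver the lowest of its group. The distance was taken over these same arrays, so this likeness is part of how Pck1 was picked. Slc25a25, a mitochondrial carrier of ATP and phosphate, lay at 0.296. G6pc, glucose 6-phosphatase, which releases glucose from the liver, lay at 0.357 with signals of 1055.0 to 1295.6 at F21, 3769.4 to 6336.5 at 2 h and 3303.7 to 3574.1 at 6 h. Peg3, an imprinted zinc finger gene, lay at 0.422. Prkd2, a protein kinase, lay at 0.491 but did not pass (adjusted p = 0.0894 at 2 h and 0.0739 at 6 h in limma).

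**Figure D3:**
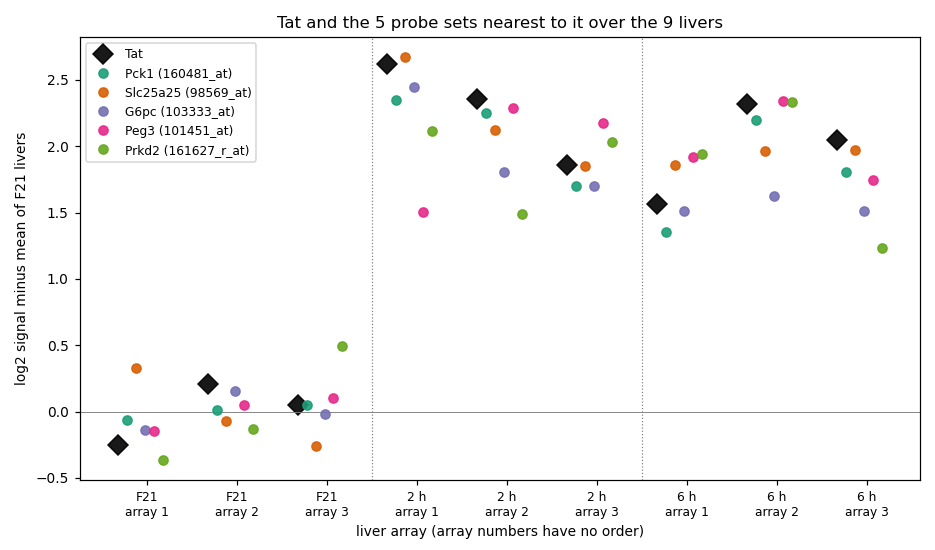
log2 signal minus the mean of the 3 F21 livers (vertical axis) for Tat and the 5 nearest probe sets in each of the 9 liver arrays. Diamonds are Tat and circles the other genes, of which Pck1 lies closest, at a root mean square distance of 0.184.

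Aass and Bhmt were the genes that passed in liver in a list of other enzymes of amino acid metabolism. Of 81 listed genes, 48 are on the array, and 47 probe sets of 41 genes were tested in liver. At 2 h 1 probe set rose and none fell, beside 0.913% of all tested that passed, and at 6 h 2 rose and none fell, beside 1.84%. These shares of the list lie near those of all tested. The median difference of the 47 was -0.04 at 2 h and -0.01 at 6 h. None passed between 6 h and 2 h. Aass, the enzyme that begins lysine breakdown, had signals of 146.5, 145.8 and 174.8 at F21, 233.8, 427.9 and 416.8 at 2 h, and 398.2, 382.9 and 339.4 at 6 h. It rose by 1.16 on the log2 scale at 2 h (adjusted p = 0.0328 in limma) and was 1.26 above F21 at 6 h (adjusted p = 0.0142). All its livers after birth were above those of F21. Bhmt, which remethylates homocysteine to methionine with betaine, had signals of 991.7, 846.9 and 1217.8 at F21, 1559.5, 3552.0 and 2528.8 at 2 h, and 2252.3, 4612.2 and 2878.9 at 6 h at its probe set 94049_at. It rose by 1.62 at 6 h (adjusted p = 0.0113 in limma), and at 2 h it was 1.26 above F21 (adjusted p = 0.0654). The other Bhmt probe set, 161404_at, was 0.76 above F21 at 6 h (adjusted p = 0.293).

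In phenylalanine and tyrosine breakdown, where Tat itself belongs, none of the other 6 tested probe sets passed, and their median was -0.45 at 2 h and -0.40 at 6 h. None of 11 probe sets of branched-chain amino acid breakdown, 9 of serine, glycine and threonine, or 5 of urea cycle transport and ammonia handling passed at either time. Of 7 tested regulators of these genes, 2 fell at 6 h and none rose, where 1.84% of all tested probe sets passed. Cebpa, a transcription factor of hepatocytes, had 1004.7, 1090.6 and 1056.1 at 6 h, against 2143.5, 1931.7 and 2124.6 at F21. It fell by 0.98 on the log2 scale (adjusted p = 0.0412 in limma), a call that was lost in all 6 fits that left out 1 array. Foxa2, another hepatocyte transcription factor, had 30.5, 21.5 and 44.6 at 6 h, against 100.6, 166.6 and 161.0 at F21. It fell by 2.18 (adjusted p = 0.0179), lost in 2 of the 6, and it met the filter on low signals through 3 F21 and 2 of the 2 h livers and no 6 h liver. Without the filter on low signals Aass, Bhmt, Cebpa and Foxa2 did not pass. Leaving out 1 array ended the call of Aass in 5 of 6 fits at 2 h and 3 of 6 at 6 h, and that of Bhmt in 1 of 6, and Aass at 2 h did not pass when its 2 groups alone were fitted (adjusted p = 0.062).

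**Figure D4:**
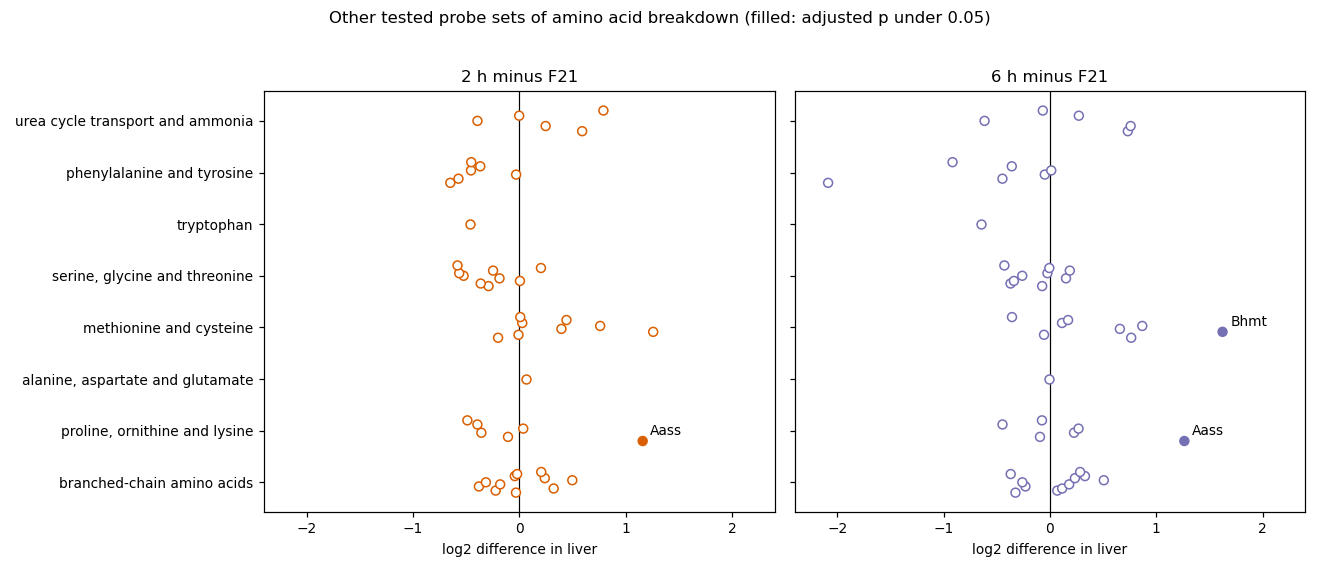
Difference in log2 signal from F21 in liver (horizontal axis) at 2 h (left) and 6 h (right). Shown are the 47 tested probe sets of the other listed genes of amino acid metabolism, by group (rows). Filled points passed at an adjusted p under 0.05: Aass at 1.16 and 1.26 and Bhmt at 1.62.

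Against the lung, most members had higher signals in liver at all 3 shared times. Of the 8 probe sets tested, 6 met the filter through the livers and not through the lungs, where Tat, Hal, Otc, Asl (104566_at) and Arg1 reached its level on 0 of 9 lungs of room air and Cps1 on 1. Their higher signal in liver is thus part of how they came to be tested, and the counts are given as a description. Ass1 and Asl (161891_r_at) met it in both organs. In the fit of 9 livers and 9 lungs of room air, 7 of the 8 tested probe sets were higher in liver at F21, 7 at 2 h and 7 at 6 h, while 35.7%, 42.1% and 36.4% of all 6858 tested probe sets passed at these times in either direction. The exception was Asl probe set 161891_r_at, with 19.2 to 116.6 over 9 livers and 16.4 to 157.7 over 24 lungs. Liver and lung did not overlap in 7 of the 10 probe sets at each time, where 33.3%, 41.1% and 33.9% of all probe sets did not. In Tat, Cps1, Otc and Arg1 the lowest of the 9 livers was above the highest of all 24 lungs, which held for 3.7% of all probe sets.

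Cps1 had a signal of 4765.7 to 10886.9 in liver and 3.9 to 125.1 in lung. Its log2 difference between liver and lung was 7.10 at F21 (95% interval 6.27 to 7.93, adjusted p = 2.48e-11 in limma), 6.55 at 2 h and 8.37 at 6 h. Arg1 had 1169.7 to 3406.6 in liver and 2.6 to 79.5 in lung, with log2 differences of 6.34, 6.32 and 5.59. Tat had 173.0 to 1266.7 in liver and 2.9 to 53.8 in lung, with log2 differences of 3.88 at F21, 5.94 at 2 h and 6.16 at 6 h. In these 3 genes no lung reached the lowest liver. All 3 met the filter through their livers, so their differences from lung are given as a description.

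Otc had 133.6 to 275.8 in liver and 5.0 to 99.6 in lung, with log2 differences of 3.55, 3.62 and 4.0. All 3 lungs of room air at 6 h (6.9, 6.4 and 8.6) lay under the floor of 10, so that the difference there depends on the floor. Asl (104566_at) had 33.9 to 107.9 in liver and 2.5 to 85.9 in lung, and exceeded the lung of room air by 2.02, 2.20 and 3.10. Hal had 72.3 to 267.1 in liver and 6.3 to 75.0 in lung, with log2 differences of 1.18 (adjusted p = 0.0377), 2.07 and 2.44. The call of Hal at F21 was lost in 5 of 6 fits that left out 1 array and without the filter (adjusted p = 0.06).

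The size of these differences depended on how low signals were treated. With a pseudocount of 16 in place of the floor, Tat came to 2.87, 4.96 and 4.93 at F21, 2 h and 6 h, Otc to 2.76, 2.78 and 2.92, and Asl (104566_at) to 1.41, 1.48 and 2.20. Under the same change Cps1 at 6 h was 7.69 and Arg1 at F21 was 5.52. With a floor of 1, Arg1 at F21 was 7.25, Cps1 at 6 h 8.82 and Asl at 6 h 3.73. All of these passed, but these probe sets met the filter through their livers, so the calls are a description.

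Ass1 lay well above the floor in every lung, with 243.8 to 389.5 over the 9 livers and 81.7 to 258.9 over the 24 lungs. It exceeded the lung of room air by 0.66 on the log2 scale at F21 (1.58-fold, 95% interval 0.31 to 1.01, adjusted p = 0.00443 in limma), by 0.55 at 2 h (1.46-fold, adjusted p = 0.0132) and by 0.88 at 6 h (1.84-fold, adjusted p = 3.63e-04). The call at 2 h was lost without the third 2 h liver (adjusted p = 0.0522), without the second 2 h lung (0.0515) and with all 33 arrays in the fit (0.0872). In lungs of room air its signals were 194.3, 182.0 and 174.8 at F21, 258.9, 207.4 and 215.6 at 2 h, 192.4, 200.3 and 197.0 at 6 h, 151.0, 81.7 and 108.6 at 12 h, and 195.9, 105.2 and 92.0 at 24 h. In lungs of 10% oxygen they were 97.1, 111.0 and 94.9 at F21, 163.2, 152.3 and 217.1 at 2 h, and 144.4, 131.2 and 191.3 at 6 h. The F21 lungs of 10% oxygen lay below those of room air, a comparison that was not tested.

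**Figure D5:**
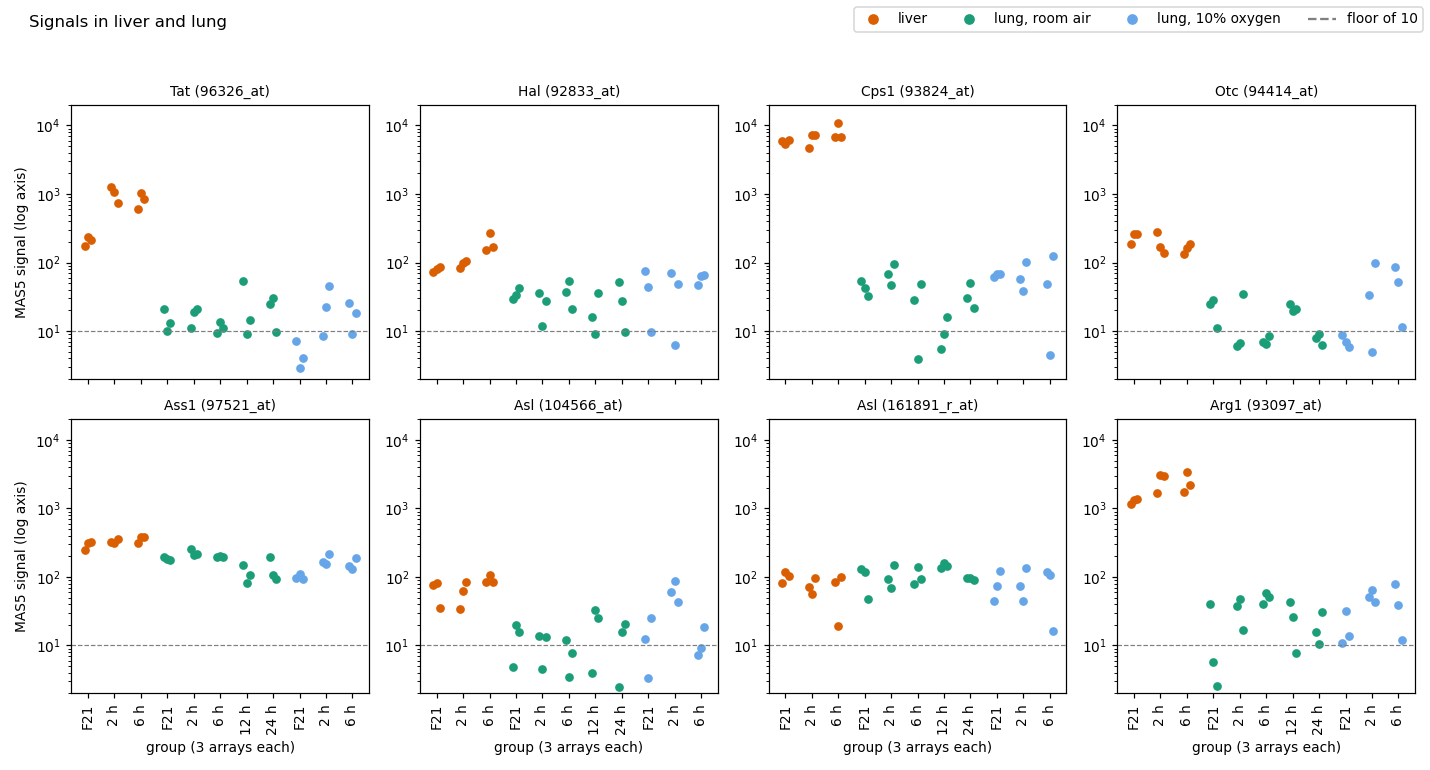
MAS5 signal (log axis) of the 8 tested probe sets in the 3 liver groups and, to their right, the 5 lung groups of room air and the 3 of 10% oxygen. Each point is 1 array and the dashed line is the floor of 10. Cps1 lies at 4765.7 to 10886.9 in liver and at 3.9 to 125.1 in lung, while Ass1 is the gene of the urea cycle with 81.7 or more in every lung.

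The change of Tat after birth was set against its change in lung, where it did not meet the filter on low signals. In lungs of room air Tat was 21.0, 10.1 and 13.1 at F21, 11, 18.8 and 20.8 at 2 h, and 9.5, 13.5 and 10.9 at 6 h, so that the groups overlapped near the floor and the lung change is a difference of signals close to it. With that limit, the liver change exceeded the lung change by 2.07 on the log2 scale at 2 h (95% interval 1.05 to 3.08, adjusted p = 0.0266 in limma) and by 2.28 at 6 h (95% interval 1.26 to 3.30, adjusted p = 0.031). None of the other 7 tested members passed in either interaction, where 2.54% of all tested probe sets passed at 2 h and 0.875% at 6 h. Both calls were lost when the 4 groups compared alone, or all 33 arrays, entered the fit, the 6 h call also without the filter, and both in 6 of 12 fits (2 h) and 7 of 12 fits (6 h) that left out 1 array. Lungs of 10% oxygen were not part of this contrast. In them Tat was 7.1, 2.9 and 4.1 at F21, 8.6, 22.8 and 45.8 at 2 h, and 25.4, 9.0 and 18.5 at 6 h. Every newborn lung there was above every F21 lung, but only before the floor of 10 was applied. All F21 signals and the lowest newborn signals, 8.6 at 2 h and 9.0 at 6 h, were under that floor. The share of all probe sets with such a separation in 10% oxygen was not taken. Tat did not meet the filter in lung, so this difference was left out of the tests.

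Within the lung, 3 member probe sets passed the filter (Cps1, Ass1 and Asl 161891_r_at) and none passed the test in limma against F21. For lungs of room air the share of all 6931 tested probe sets that passed was 4.24% at 2 h, 1.02% at 6 h, 1.34% at 12 h and 0.577% at 24 h. For lungs of 10% oxygen it was 2.65% at 2 h and 6.31% at 6 h. An unadjusted p under 0.05 was seen for Cps1 and Ass1 at 12 h in room air and for Ass1 at 2 h and 6 h in 10% oxygen. Ass1 was lower at 12 h in room air, by -0.74 on the log2 scale (adjusted p = 0.243), and higher at 2 h in 10% oxygen, by 0.80 (adjusted p = 0.127). By the test of the study's methods at its own threshold (unadjusted p under 0.01), Cps1 passed at 12 h in room air and Ass1 at 2 h in 10% oxygen. The shares above belong to the adjusted test in limma and not to this one, so these calls are given as a description. Cps1 was 5.5, 9.0 and 16.2 at 12 h, where 2 of 3 arrays were set to the floor of 10, which narrows their spread. For Ass1, the Gapdh 3′ to 5′ ratio was 1.21, 6.79 and 9.40 in the F21 lungs of 10% oxygen and 3.01, 5.39 and 1.81 at 2 h.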

How the data were processed

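The authors hybridized RNA of whole lung and liver to Affymetrix MGU74Av2 arrays. The deposited values are signal intensities on a linear scale, which the authors made with MAS5 at a target intensity of 100. Trimmed means came to 100.0 to 100.1 on the 33 arrays, and no values were missing. Detection calls were not used here. The 66 controls were removed, a floor of 10 was applied to the signals, and log2 was taken. Between 13.4% and 22.2% of the signals of an array lay under that floor. Testing was limited to probe sets that belonged to the top 40% on 3 or more arrays of a fit. Genes came from the annotation of the array, and 10833 probe sets carry 1 symbol.

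Groups were compared with limma 3.58.1 in R 4.3.3, with variances moderated towards a trend on signal and p-values adjusted over all tested probe sets (Benjamini-Hochberg), at an adjusted p under 0.05. Livers (9 arrays, 6 residual degrees of freedom), livers with lungs of room air (18 arrays, 12) and lungs (24 arrays, 16) were fitted apart. The change of liver minus that of lung was tested as an interaction. The procedure was tested on simulated data. The number of arrays limits the precision. The members, the gene lists and the tests were chosen with earlier results of these data known. All member probe sets are named, with the genes of the lists that passed in liver and the 5 probe sets nearest to Tat. The alternatives changed the floor to 1 or to a pseudocount of 16, quantile-normalized the arrays, dropped the filter or replaced it by the top 30% of median signals, and used the groups compared alone, all 33 arrays, a replicate block, the test of the study's methods, and leaving out each array.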

Additional observations from a re-analysis of the deposited data

Results flagged for a closer look

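The change of Tat after birth differed between liver and lung of room air by a test of the difference itself, at both shared times. The liver change from F21 exceeded the lung change by 2.07 on the log2 scale at 2 h (adjusted p = 0.0266 in limma) and by 2.28 at 6 h (adjusted p = 0.031 in limma). Tat was higher in 3 of 3 livers at 2 h and in 3 of 3 at 6 h than in any F21 liver. In lungs of room air, signals of 9.5 to 21.0 lay near the floor of 10 at all 3 times, so that a fall below it could not have been measured. Tat did not meet the filter on low signals in lung and entered the fit through its livers. Apart from the fits that left out 1 array, the differences were 1.93 to 2.09 at 2 h and 2.05 to 2.31 at 6 h over the alternatives. The 2 h call was lost in 6 and the 6 h call in 7 of 12 fits that left out 1 array, and both were lost with the 4 groups alone (adjusted p = 0.0538 and 0.0522) and with all 33 arrays (0.255 and 0.33), the 6 h call also without the filter (0.0504).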

How the results depend on the processing

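Signals near the floor limit Tdo2 and Asl (104566_at) and, in lung, the members other than Ass1 and Asl (161891_r_at). Over 46 single values, 625 of 700 refits kept the direction and the side of the threshold, 69 no longer passed and 3 newly passed. Asl (104566_at) at 2 h turned in 3 refits that left out 1 array (-0.478 to 0.278 on the log2 scale). Tat passed in liver at both times under every alternative except the adjusted test of the study's methods (adjusted p = 0.218 at 2 h and 0.134 at 6 h), under which 0 members passed at 2 h and 0 at 6 h. With the replicate block, 2 members passed at 2 h (Tat and Arg1, adjusted p = 0.0204) and 3 at 6 h (Arg1 at 0.0264). The share of all probe sets under the block is not given, so these counts are a description. Samples of the same number correlated by -0.0361 to 0.0946 in their deviations. These values do not show a pairing by number and cannot exclude one. Leaving out 1 array gave 1 to 2 members at 2 h (2 without the first 2 h liver) and 1 to 2 at 6 h. Hal was lost there without any 1 of the F21 livers or without the second or the third 6 h liver. Without the filter 1 member passed at 6 h in liver, 0 in the 6 h interaction and 1 at 2 h in lungs of 10% oxygen (Asl 104566_at). The top 30% filter, which tests fewer members, left 3 against lung at F21, 3 at 2 h and 3 at 6 h, and 0 in both interactions. The interactions also gave 0 with the 4 groups alone, 0 with all 33 arrays and 0 to 1 without 1 array. Among the livers, each of the F21 replicates 1 and 3 and the 2 h replicates 1 and 2 was needed at 2 h, and each F21 replicate and the 6 h replicates 2 and 3 at 6 h. Among the lungs, the first F21 array was needed at both times, and the first 2 h and the first 6 h array at its own time. By the unadjusted test of the methods, 1 member passed in lung at 12 h in room air and 1 at 2 h in 10% oxygen. These lung counts are a description, without the share of all probe sets beside them. Over all probe sets, 52 passed in liver at 2 h, 13 without the filter, 177 by the unadjusted test of the methods, 0 after its adjustment, and 13 to 129 without 1 array. At 6 h the counts were 105, 35, 211, 21, and 40 to 70. The test of the methods was run here on floored log2 signals. The filter on signal took the place of the study's detection filter, so these counts are not those that the study reported. Against lung, 1750 to 1944 passed with the top 30% filter and 1385 to 2010 by the methods' tests. In the interactions 71 (2 h) and 15 (6 h) passed with all 33 arrays and 31 to 184 without 1 array. The causes were not tested.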

Other observations

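Asl probe set 104566_at had 60.3, 85.9 and 43.7 in the lungs of 10% oxygen at 2 h, against 12.5, 3.3 and 25.2 in the F21 lungs of 10% oxygen. The 9 livers lay at 33.9 to 107.9, and the other 21 lungs at 2.5 to 32.6. The probe set did not pass the filter in lung, and without the filter it passed at 2 h in 10% oxygen in limma. The other Asl probe set, 161891_r_at, had 73.5, 45.0 and 133.9 in the lungs of 10% oxygen at 2 h, against 43.9, 73.5 and 120.7 at F21, and these groups overlapped.

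The 1 F21 lung of 10% oxygen with a summed hepatocyte signal of 3243.1 had 2160.0 for albumin, where the median of its group was 84.6. Cps1 was 62.4, 68.4 and 69.1 in the 3 lungs of that group, without an array that stood apart. The source of the hepatocyte signals in that lung was not tested.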
